A study of Mus musculus with 8 samples.

Results

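The miRNAs examined here were those of blood vessel lining and of red blood cells, taken as a measure of the vessel and blood content of tissues cut from the pubertal mouse mammary gland. They were the probes named mmu-miR-126-3p and mmu-miR-126-5p, the 2 strands of the endothelial miRNA miR-126, and mmu-miR-451, mmu-miR-144 and mmu-miR-486, which are abundant in red cells. These 5 miRNAs, of 611 mouse miRNAs on the array, were found by their exact name and not by a measured value. The set was chosen with earlier results of these data known. The tissues were TEBs, the terminal end buds by which ducts extend into the fat pad (3 arrays), mature ducts (2 arrays) and distal stroma (3 arrays). All 8 samples came from female mice aged 5 weeks that carried a beta actin-GFP reporter, of strain FVB/n according to the methods, so all 3 tissues share that transgene. The fluorescent gland was cut under a microscope with no sorting of cells, and a fragment therefore holds the vessels and blood that lie within it. No step to flush blood from the tissue is described in the sources used here. Nothing in the labels says that the replicates of a tissue are separate animals, so the p-values measure the spread between these samples, which may be technical.

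MicroRNAs are short RNAs that repress messenger RNAs through pairing of their seed, bases 2 to 8 of the mature strand. miR-126 is made from an intron of Egfl7, a gene of the endothelium, and supports vascular endothelial growth factor signalling and the integrity of vessels. miR-144 and miR-451 are made from a single transcript that rises as red cell precursors mature, and miR-451 is unusual in that Argonaute 2 rather than Dicer cuts its precursor. Mature red cells have lost their nucleus but still carry these miRNAs. miR-486 lies within the Ank1 gene and is abundant in red cells and also in skeletal muscle.

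The mature sequences of the 3 members that had an entry in the RefSeq table are shown because their seeds show that the members are unrelated in sequence. The array names mmu-miR-126-3p, mmu-miR-451 and mmu-miR-144 were matched to the RefSeq names mmu-miR-126a-3p, mmu-miR-451a and mmu-miR-144-3p, and mmu-miR-126-5p and mmu-miR-486 are named only. The sequences are written from 5′ to 3′ with the seed in capitals.
mmu-miR-126a-3p: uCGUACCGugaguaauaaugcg
mmu-miR-451a: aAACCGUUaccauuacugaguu
mmu-miR-144-3p: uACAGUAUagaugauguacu
Of the 1738 mature miRNA entries in that table, no entry at another locus shared the seed of any of the 3. The mature miR-126a-3p lies at chr2:26591402-26591423 on the plus strand of GRCm38.p6, inside the Egfl7 gene. The mature miR-451a lies at chr11:78073186-78073207 and miR-144-3p at chr11:78073047-78073066, both on the plus strand. The hairpins of Mir144 and Mir451a are 99 bases apart, and the annotation places Mir451b on the opposite strand of Mir451a.

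The hairpins are shown to place each mature strand, which is in capitals, within its precursor.
Mir126a: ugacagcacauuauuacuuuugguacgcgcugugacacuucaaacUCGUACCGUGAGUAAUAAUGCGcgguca
Mir451a: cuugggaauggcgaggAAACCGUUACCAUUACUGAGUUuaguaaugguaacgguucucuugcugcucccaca
Mir144: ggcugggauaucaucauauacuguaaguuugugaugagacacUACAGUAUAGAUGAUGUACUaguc
In the Mir126a hairpin of 73 bases the mature strand took bases 46 to 67, the 3′ arm. In the Mir144 hairpin of 66 bases it took bases 43 to 62, also the 3′ arm. In the Mir451a hairpin of 72 bases it took bases 17 to 38 and so ran across the middle of the hairpin.

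The signal of a miRNA is the background-subtracted intensity summed over its probes, and for the values below each array was multiplied by a factor, from 0.75 to 1.36, that gave all arrays the same 75th percentile over the 108 miRNAs detected on each of them. Between 23.2% and 27.7% of the mouse miRNAs were detected on an array. Over the 167 tested miRNAs, which are not independent of each other, log2 signals had correlations of 0.956 to 0.987 between arrays of a tissue and of 0.645 to 0.926 between tissues. The labels of the dissection were checked against epithelial miRNAs, of which 0 of 10 were detected on any stroma array and 8 of 10 on every TEB and duct array. Their summed scaled signal was 2.71 to 16.6 units in stroma, 2161 to 2391 in ducts and 2059 to 2193 in TEBs. No array stood apart from its tissue by these measures.

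Of the 5 members, 3 were detected on all 8 arrays, namely mmu-miR-126-3p, mmu-miR-451 and mmu-miR-486. mmu-miR-144 was detected on 7 arrays and missed on TEB replicate 3. mmu-miR-126-5p was detected on no array, so 4 members entered the tests.

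**Figure D1:**
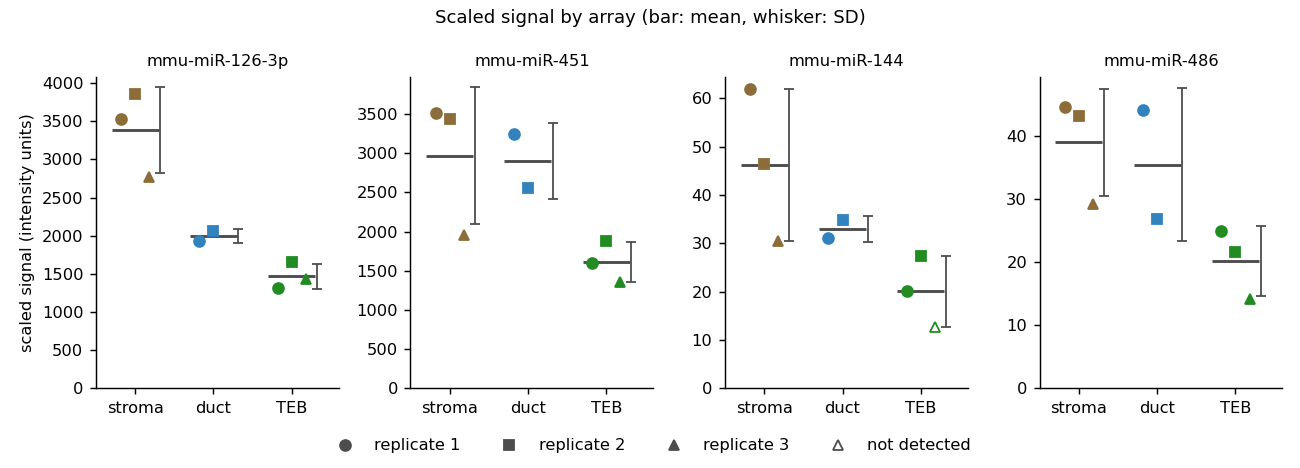
Scaled signal in intensity units of the 4 tested members on each array, by tissue, on axes that start at 0. Symbols are replicates, the open symbol is an array on which the miRNA was not detected, bars are means and whiskers SD. The TEB arrays lie below all stroma and duct arrays for each of the 4 miRNAs, while the duct arrays lie below all stroma arrays for mmu-miR-126-3p alone.

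mmu-miR-126-3p, the endothelial strand, was highest in stroma, lower in ducts and lowest in TEBs. Its scaled signal was 3526, 3863 and 2765 units on stroma replicates 1 to 3. It was 1927 and 2061 units on the 2 duct arrays and 1315, 1650 and 1430 units on TEB replicates 1 to 3. No array of a tissue overlapped with an array of another tissue in scaled signal. Before scaling, stroma replicate 3 (2032 units) lay below both duct arrays (2569.5 and 2568.7 units), and the TEB arrays stayed lowest. The mean was 3385 ± 563 (SD, n = 3) for stroma, 1994 ± 94.5 (SD, n = 2) for ducts and 1465 ± 170 (SD, n = 3) for TEBs.

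In limma with Benjamini-Hochberg adjustment over the 167 miRNAs, mmu-miR-126-3p was 2.30-fold lower in TEBs than in stroma (log2 fold change -1.20, SE 0.15, adjusted p = 0.00096). It was also 1.68-fold lower in ducts than in stroma (log2 fold change -0.75, SE 0.17, adjusted p = 0.022). Between TEBs and ducts the difference was smaller (log2 fold change -0.45, SE 0.17, adjusted p = 0.082) and did not pass the threshold. The lower signal in TEBs than in stroma kept its call when any array was left out, with log2 fold changes of -1.34 to -1.10. The lower signal in ducts lost its call without stroma replicate 1 (adjusted p = 0.072), stroma replicate 2 (0.062), duct replicate 1 (0.13) or duct replicate 2 (0.076). Row 1 of the slide held stroma replicate 1, duct replicate 1 and TEB replicates 1 and 2, and row 2 held the other arrays. Within rows 1 and 2 the log2 difference was -1.26 and -1.19 for TEBs against stroma. It was -0.87 and -0.67 for ducts against stroma, and -0.39 and -0.53 for TEBs against ducts. In these bulk samples fewer cells of a type cannot be told apart from less RNA per cell, and this holds for each result that follows.

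The other strand, mmu-miR-126-5p, gave no signal above background. Its background-subtracted signal was negative on all 8 arrays, from -27.3 to -2.73 units before scaling, and lay between -2.63 and -0.76 times its own error. The array therefore gave no level for this strand, and its ratio to mmu-miR-126-3p was not computed.

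mmu-miR-451, the red cell miRNA whose precursor bypasses Dicer, was at similar levels in stroma and ducts and lower in TEBs. Its scaled signal was 3516, 3440 and 1958 units on stroma replicates 1 to 3. It was 3245 and 2556 units on the 2 duct arrays and 1595, 1874 and 1358 units on TEB replicates 1 to 3. Every TEB array was below every stroma and duct array, and stroma replicate 3, the stroma array closest to TEBs, lay below both duct arrays. The mean was 2971 ± 878 (SD, n = 3) for stroma, 2900 ± 487 (SD, n = 2) for ducts and 1609 ± 259 (SD, n = 3) for TEBs.

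mmu-miR-451 was 1.80-fold lower in TEBs than in stroma in limma (log2 fold change -0.85, SE 0.26, adjusted p = 0.027). Against ducts its signal in TEBs was as much lower (log2 fold change -0.85, SE 0.29), but the adjusted p of 0.066 missed the threshold in this fit. Between ducts and stroma the log2 difference was 0.00 with a 95% interval of -0.70 to 0.71, so this fit leaves changes within those limits possible in either direction. The call against stroma was lost without stroma replicate 1 (adjusted p = 0.090), stroma replicate 2 (0.088), TEB replicate 1 (0.062) or TEB replicate 3 (0.087). The difference between TEBs and ducts passed without stroma replicate 3 (adjusted p = 0.023), an array that enters this comparison through the shared estimate of spread. Within the 2 rows of the slide the log2 difference was -1.02 and -0.93 for TEBs against stroma, -0.91 and -0.91 for TEBs against ducts, and -0.12 and -0.02 for ducts against stroma.

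mmu-miR-144, made from the transcript that also holds miR-451, had a weak signal, of 2.38 to 7.92 times its error. Its scaled signal was 61.9, 46.3 and 30.4 units on stroma replicates 1 to 3 and 31.0 and 34.8 units on the duct arrays. It was 20.2 and 27.3 units on TEB replicates 1 and 2 and 12.6 units on TEB replicate 3, where it was not detected. Stroma spanned a range in which both duct arrays lay, and every TEB array was lower. The mean was 46.2 ± 15.7 (SD, n = 3) for stroma, 32.9 ± 2.68 (SD, n = 2) for ducts and 20.0 ± 7.31 (SD, n = 3) for TEBs.

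mmu-miR-144 was 2.32-fold lower in TEBs than in stroma (log2 fold change -1.22, SE 0.35, adjusted p = 0.022 in limma), a value that includes the undetected array. Without that array the log2 difference was -0.92 and the adjusted p was 0.054. The call was also lost without stroma replicate 1 (adjusted p = 0.068) or stroma replicate 2 (0.063). Neither the difference between ducts and stroma (log2 fold change -0.43, SE 0.40, adjusted p = 0.54) nor that between TEBs and ducts (-0.78, SE 0.40, adjusted p = 0.17) passed. Within slide rows 1 and 2 the log2 difference of mmu-miR-144 was -1.40 and -1.57 for TEBs against stroma. It was -0.99 and -0.11 for ducts against stroma, and -0.40 and -1.46 for TEBs against ducts. The values of -1.57 and -1.46 rest on TEB replicate 3, the only TEB array of row 2, where mmu-miR-144 was not detected.

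mmu-miR-486, the third red cell miRNA, also had a weak signal, of 2.62 to 6.05 times its error. Its scaled signal was 44.7, 43.2 and 29.3 units on stroma replicates 1 to 3 and 44.2 and 26.9 units on the duct arrays. It was 25.0, 21.6 and 14.1 units on TEB replicates 1 to 3. The stroma and duct arrays overlapped, and the TEB arrays lay below them, with the lower duct array close to the highest TEB array. The mean was 39.1 ± 8.50 (SD, n = 3) for stroma, 35.5 ± 12.2 (SD, n = 2) for ducts and 20.2 ± 5.57 (SD, n = 3) for TEBs.

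mmu-miR-486 was 1.95-fold lower in TEBs than in stroma (log2 fold change -0.96, SE 0.30, adjusted p = 0.029 in limma). The call was lost without stroma replicate 1 (adjusted p = 0.092), stroma replicate 2 (0.088), TEB replicate 2 (0.058) or TEB replicate 3 (0.082). The log2 difference was -0.15 (SE 0.34, adjusted p = 0.82) between ducts and stroma and -0.81 (SE 0.34, adjusted p = 0.10) between TEBs and ducts. By slide row it was -0.94 and -1.33 for TEBs against stroma, -0.016 and -0.40 for ducts against stroma, and -0.93 in both rows for TEBs against ducts. As miR-486 is also a skeletal muscle miRNA, the muscle list was read beside it. Of its 4 members 2 were tested and limma called 0 at an adjusted p under 0.05 in any comparison. These 2 entered the tests through the ducts alone, being undetected on stroma replicates 1 and 2 and on TEB replicate 1. That filter favours a lower value in TEBs than in ducts. For TEBs against ducts both were lower in log2 value than mmu-miR-486, at -1.16 for mmu-miR-133a (adjusted p = 0.066) and -1.32 for mmu-miR-133b (adjusted p = 0.15), and 2 of 2 were called lower with no scaling. For TEBs against stroma they were at -0.51 and -0.48, and for ducts against stroma at 0.66 and 0.84. The list's summed scaled signal was 31.2 to 60.2 units in stroma, 56.1 to 179 in ducts and 17.1 to 89.5 in TEBs. The upper ends in ducts and TEBs were replicate 2 of each, with 80.3 and 38.3 units from mmu-miR-1. That miRNA was not tested and was undetected on replicate 1 of both tissues. The part of muscle in the miR-486 values was not tested.

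**Figure D2:**
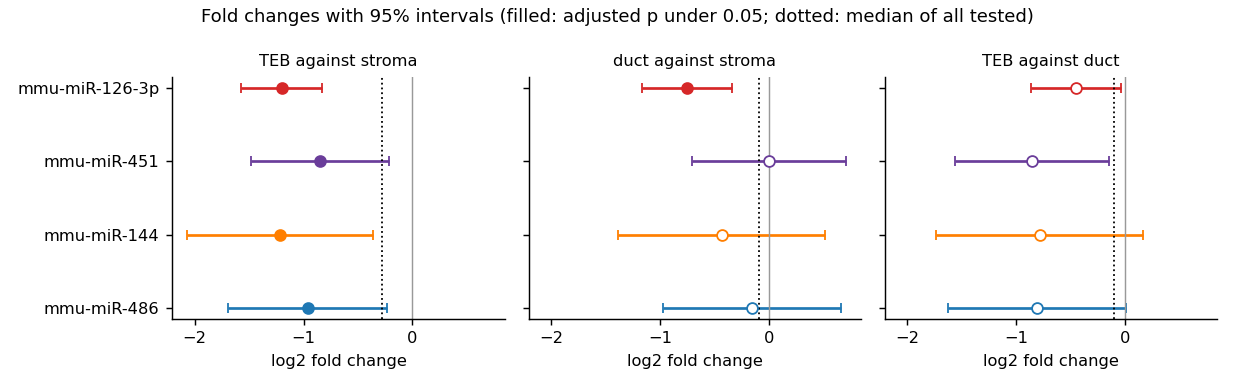
Log2 fold changes of the 4 tested members in the 3 comparisons, from the limma fit to 8 arrays, with 95% intervals. Filled points have an adjusted p under 0.05 and the dotted line is the median of the 167 tested miRNAs. All 4 members are filled for TEBs against stroma, mmu-miR-126-3p alone for ducts against stroma, and none for TEBs against ducts.

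For TEBs against stroma, 4 of the 4 tested members were called lower, where 44.3% of all tested miRNAs were called lower. The scaled arrays did not overlap for 4 of 4 members, TEBs being lower, as they did not for 48.5% of all tested miRNAs. Lower signals in TEBs were therefore common among the miRNAs of this array. Before scaling, TEB and stroma arrays overlapped for mmu-miR-451, mmu-miR-144 and mmu-miR-486. Stroma replicate 3 was at 1439, 22.4 and 21.5 units, below TEB replicate 2 at 1981, 28.8 and 22.8 units. In the authors' value table mmu-miR-144 and mmu-miR-486 overlapped as well. There mmu-miR-451 was tied, at a log2 value of 10.88 on stroma replicate 3 and on TEB replicates 1 and 2. The median log2 fold change was -1.08 over the 4 members and -0.28 over all 167. Among the 167, ordered from the most negative fold change, mmu-miR-144 stood at 29, mmu-miR-126-3p at 31, mmu-miR-486 at 39 and mmu-miR-451 at 43.

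For ducts against stroma, 1 of 4 members was called lower against a background of 12.0%, and the arrays of 1 of 4 did not overlap against 22.8%. That member was mmu-miR-126-3p in both counts, which use scaled signals. Before scaling its duct and stroma arrays overlapped. The median log2 fold change was -0.29 over the members and -0.09 over all tested miRNAs.

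For TEBs against ducts, 0 of 4 members were called by limma at an adjusted p under 0.05, and the background of miRNAs called lower was 13.2%. At an unadjusted p under 0.05, limma called 2 of the 4, mmu-miR-451 and mmu-miR-126-3p. The methods' t-test called 0 after adjustment and 2 before it. The scaled arrays of 4 of 4 members did not overlap, TEBs being lower, as for 43.1% of all tested miRNAs. In the authors' value table the TEB and duct arrays overlapped for mmu-miR-144 and mmu-miR-486. The median log2 fold change was -0.80 over the members against -0.10 over all. With so few arrays the exact two-sided permutation test cannot go below 0.1, and it gave 0.1 for mmu-miR-126-3p and mmu-miR-451 and 0.2 for mmu-miR-144 and mmu-miR-486. The 3 comparisons share arrays pairwise and are not independent of each other.

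**Figure D3:**
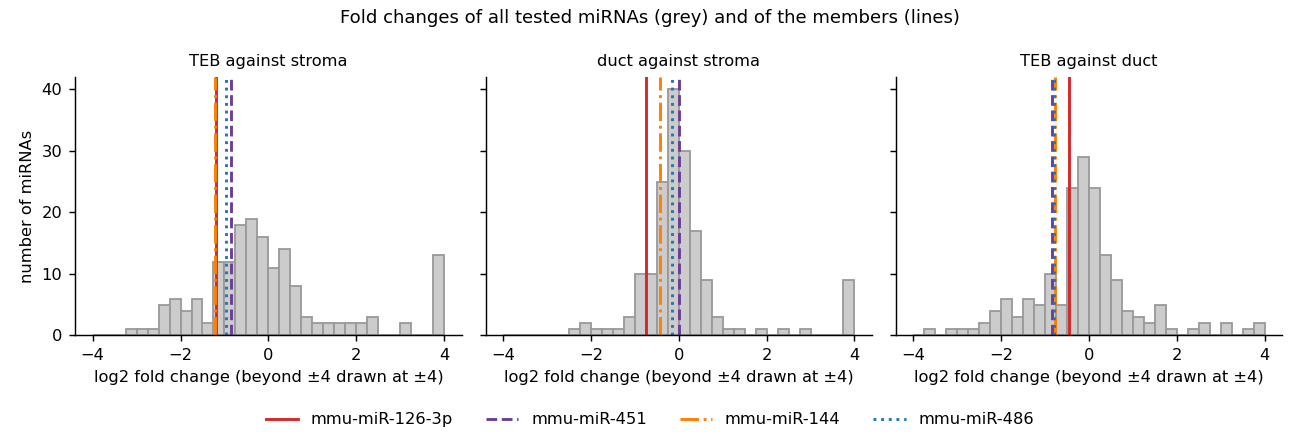
Histograms of the log2 fold changes of the 167 tested miRNAs in the 3 comparisons, in bins of 0.25, with the 4 tested members as coloured lines. In TEBs against stroma the members lie between -1.22 and -0.85, left of the median of -0.28, at places 29 to 43 from the most negative.

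The size of a fold change depended on how the arrays were put on one scale. Scaling to the 75th percentile of all 611 miRNAs, which fell at only 11.5 to 29.9 units, moved the median of all tested miRNAs from -0.28 to 0.12 for TEBs against stroma, from -0.09 to -0.25 for ducts against stroma and from -0.10 to 0.45 for TEBs against ducts. With no scaling these medians were -0.03, 0.50 and -0.47. mmu-miR-126-3p in TEBs against stroma was -0.81 on the log2 scale with the percentile of all miRNAs (adjusted p = 0.051), -0.95 with no scaling, -0.89 with quantile normalization and -1.03 in the authors' value table, and it passed in the last 3. The log2 values of the 3 red cell miRNAs for TEBs against stroma were negative under each of these scalings, but passed under the scaling to the detected miRNAs alone. Under the 4 other scalings they ranged from -0.60 to -0.46 for mmu-miR-451, from -0.97 to -0.62 for mmu-miR-144 and from -0.71 to -0.36 for mmu-miR-486, the value table giving the smallest size for the last pair. For ducts against stroma mmu-miR-126-3p was -0.14 with no scaling (adjusted p = 0.68) and -0.91 with the percentile of all miRNAs (adjusted p = 0.13), while it passed with quantile normalization (-0.78) and in the value table (-0.86). In that comparison mmu-miR-451 was 0.62 with no scaling, 0.29 with quantile normalization, 0.20 in the value table and -0.15 with the percentile of all miRNAs, and passed under none of them. Between TEBs and ducts mmu-miR-126-3p changed sign, to 0.10, with the percentile of all miRNAs.

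Set against the median of all tested miRNAs, which a common factor moves equally, the members changed less with the scaling. Apart from the floor, the percentile of all miRNAs and no scaling cannot change these values, so only quantile normalization and the value table could. For TEBs against stroma mmu-miR-126-3p lay at -0.92 relative to the median on the log2 scale, and between -1.01 and -0.82 over the 4 other scalings. mmu-miR-451 lay at -0.57 relative to the median, and between -0.57 and -0.44 over the others. mmu-miR-144 and mmu-miR-486 lay at -0.94 and -0.69, and at -0.59 and -0.34 in the value table. For TEBs against ducts mmu-miR-451 lay at -0.75, and between -0.82 and -0.75 over the others, whereas mmu-miR-126-3p lay at -0.35, and between -0.35 and -0.14 over the others. mmu-miR-144 and mmu-miR-486 lay at -0.68 and -0.70 in that comparison, and at -0.10 and -0.18 in the value table. For ducts against stroma mmu-miR-126-3p lay at -0.66, and between -0.78 and -0.64 over the others, and mmu-miR-451 at 0.09, and between 0.09 and 0.41 over the others.

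**Figure D4:**
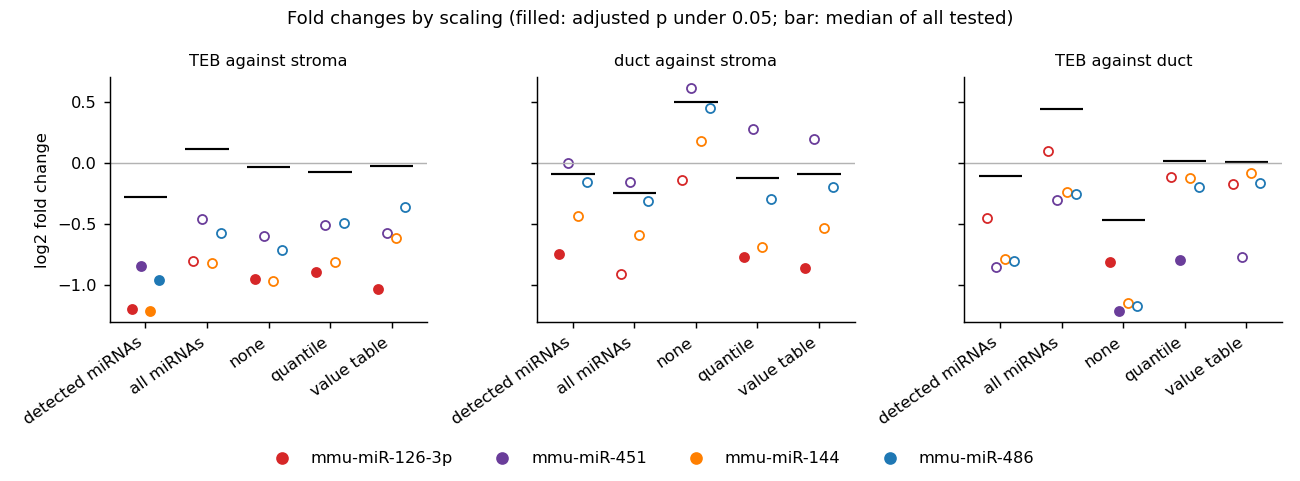
Log2 fold changes of the 4 tested members under 5 ways of scaling the arrays, for the 3 comparisons. Filled points have an adjusted p under 0.05 and black bars are the medians of the 167 tested miRNAs, which move between -0.47 and 0.50 with the scaling and carry the members with them.

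The split of calls over all miRNAs moved as well. For TEBs against stroma 34 miRNAs were called higher and 74 lower, but 38 and 28 with the percentile of all miRNAs, 41 and 41 with no scaling, 43 and 60 in the value table and 26 and 100 after normexp background correction. For ducts against stroma the split was 16 and 20, but 11 and 8 with the percentile of all miRNAs, 52 and 4 with no scaling and 14 and 55 after normexp. For TEBs against ducts it was 19 and 22, but 24 and 6 with the percentile of all miRNAs, 12 and 63 with no scaling, 31 and 14 with quantile normalization and 32 and 18 in the value table.

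A ratio of 2 miRNAs within an array is free of any factor common to that array, though not of quantile normalization, and shows unequal change without showing which miRNA moved. The ratio of mmu-miR-451 to mmu-miR-126-3p set a red cell against an endothelial miRNA. Its log2 value was 0.00, -0.17 and -0.50 on stroma replicates 1 to 3, 0.75 and 0.31 on the duct arrays, and 0.28, 0.18 and -0.07 on TEB replicates 1 to 3. Both duct arrays were above all other arrays, while the TEB and stroma arrays overlapped. The ratio was 1.69-fold higher in ducts than in stroma (log2 difference 0.75, exact two-sided permutation p = 0.1) and 1.32-fold lower in TEBs than in ducts (log2 difference -0.40, exact p = 0.1). The p of 0.1 is the smallest that these numbers of arrays allow. Between TEBs and stroma the log2 difference was 0.35 (exact permutation p = 0.2). In the authors' value table the 3 log2 differences were 1.06, -0.60 and 0.46.

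The ratios among the red cell miRNAs overlapped between tissues. The log2 ratio of mmu-miR-486 to mmu-miR-451 differed by -0.12 between TEBs and stroma (exact permutation p = 0.6), by -0.16 between ducts and stroma (p = 0.6) and by 0.04 between TEBs and ducts (exact p = 1), with pooled SD of 0.19 to 0.29. The last difference was 0.45 to 0.61 when 16 was added to the signals, after normexp and in the value table. The ratio of mmu-miR-144 to mmu-miR-451 differed by -0.44 on the log2 scale between ducts and stroma (exact permutation p = 0.3). It was not compared with TEBs, where mmu-miR-144 was not detected on every array. In all, 7 differences of ratios were computed, and none had an exact p under 0.1. With Benjamini-Hochberg adjustment over the 7, the exact permutation p of 0.1 became 0.35 and that of 0.2 became 0.47, and the others were 0.53 or more.

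**Figure D5:**
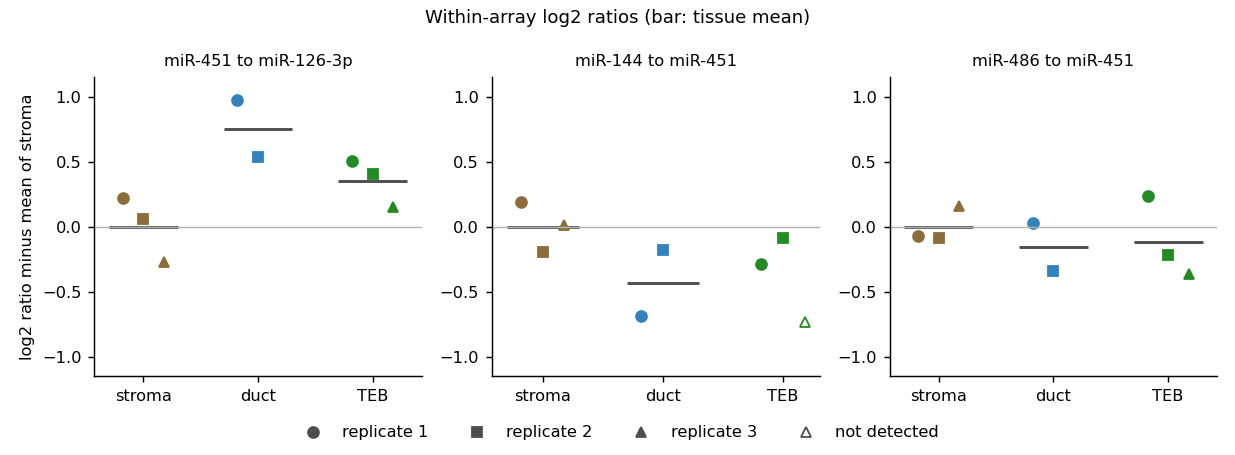
Log2 ratios of 2 miRNAs within each array, less the mean of the stroma arrays, for 3 pairs of members. Bars are tissue means and open symbols arrays on which a miRNA of the pair was not detected. The 2 duct arrays lie above all others for mmu-miR-451 to mmu-miR-126-3p, and the tissues overlap in the other panels.

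Over the 8 arrays the miRNAs with the pattern most like that of mmu-miR-126-3p, by Pearson correlation of log2 scaled signals with the 166 other tested miRNAs, were mmu-miR-193 (r = 0.992), mmu-let-7d (0.987), mmu-miR-103 (0.977), mmu-miR-29c (0.976) and mmu-miR-26b (0.972). The red cell miRNAs came further down this order, with mmu-miR-144 at 25, mmu-miR-451 at 50 and mmu-miR-486 at 64. For mmu-miR-451 the nearest were mmu-miR-143 (r = 0.939), mmu-miR-486 (0.928), mmu-miR-10b (0.908), mmu-miR-30a (0.905) and mmu-miR-144 (0.900), so that both other red cell miRNAs were among its 5 nearest, and mmu-miR-126-3p stood at 18. These correlations are descriptions over 8 arrays of 3 tissues that share the same scaling. The order moved with the scaling, since with the percentile of all miRNAs, no scaling and quantile normalization 2, 3 and 1 of the 5 nearest to mmu-miR-126-3p remained among the 5, and 4, 3 and 2 of those nearest to mmu-miR-451.

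Lists of miRNAs of other cell types were read beside the members, with summed signals under the scaling to the detected miRNAs. The adipocyte list, 5 miRNAs associated with fat cells, was lower in TEBs and ducts than in stroma, as mmu-miR-126-3p was. In TEBs against stroma 5 of 5 were called lower, against 44.3% of all tested miRNAs (median log2 fold change -1.21), from mmu-miR-378 (-1.66) to mmu-miR-193 (-0.81). In ducts against stroma 5 of 5 were also called lower, against 12.0% of all tested miRNAs (median -1.48), from mmu-miR-378 (-2.30) to mmu-miR-193 (-0.59). Of the list, mmu-miR-378* was not detected on duct replicate 1, and 4 of the 4 detected on all arrays were called lower in both comparisons. With no scaling 5 and 3 of 5 were called lower in these comparisons, and 2 and 4 with the percentile of all miRNAs. Between TEBs and ducts 0 of 5 were called by limma, with a median of 0.28 from mmu-miR-193 (-0.22) to mmu-miR-378 (0.65), where mmu-miR-126-3p was at -0.45. The summed scaled signal of the list was 1656 to 2100 units in stroma, 670 to 831 in ducts and 737 to 951 in TEBs, and mmu-miR-193 of this list was the nearest neighbour of mmu-miR-126-3p above. The part of fat tissue in the lower mmu-miR-126-3p of ducts and TEBs was not tested.

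Leukocyte miRNAs, which blood also carries, were tested for 2 of 5, and the other 3 were detected on no array. mmu-miR-223, a miRNA of myeloid cells, was lower in TEBs than in stroma (log2 fold change -0.64, adjusted p = 0.020 in limma), and its difference between ducts and stroma was -0.69 (adjusted p = 0.056). mmu-miR-142-3p, found in most blood cell lineages, differed by -0.44 (adjusted p = 0.29) between TEBs and stroma and by -0.84 (adjusted p = 0.17) between ducts and stroma. The summed scaled signal of the list was 563 to 679 units in stroma, 361 to 384 in ducts and 296 to 450 in TEBs. Before scaling the mmu-miR-223 signals of stroma (401 to 496 units) and ducts (400.1 and 449 units) overlapped, with a log2 difference of -0.076. The difference of mmu-miR-223 between ducts and stroma passed with quantile normalization (-0.73, adjusted p = 0.016 in limma) and in the value table (-0.72, adjusted p = 0.013). It did not pass with the percentile of all miRNAs (-0.85, adjusted p = 0.12 in limma). The difference between TEBs and stroma also passed in those 2, at -0.52 and -0.51. It did not with the percentile of all miRNAs (-0.24, limma adjusted p = 0.49) or no scaling (-0.39, adjusted p = 0.16). The part of leukocytes in the members' values was not tested.

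Of the vessel wall, mmu-miR-143, a miRNA of smooth muscle and pericytes, was the tested member of the mural list, and the 2 others on the array were detected nowhere. It was lower in TEBs than in stroma (log2 fold change -0.40, adjusted p = 0.035 in limma) and in TEBs than in ducts (-0.61, adjusted p = 0.027), and differed by 0.21 between ducts and stroma (adjusted p = 0.38). Under the 4 other scalings the difference of mmu-miR-143 between TEBs and stroma was -0.27 to -0.0071 and did not pass, and that between TEBs and ducts was -0.98 to -0.060 and passed with no scaling alone. The summed signal of that list was 68.8 to 93.4 units in stroma, 89.5 to 104 in ducts and 60.4 to 65.5 in TEBs. The part of mural cells in the members' values was not tested.

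A list of 11 other miRNAs studied in endothelium and vessel growth was mixed in direction. Its 10 tested members include 2 that were detected on no stroma array and not on duct replicate 1. These entered through the TEBs alone. Of the 8 detected on all arrays 2 were called higher and 2 lower in TEBs than in stroma (median log2 fold change -0.03, and between 0.10 and 0.36 under the 4 other scalings), from mmu-miR-23a (-0.59) to mmu-miR-210 (2.47), a miRNA induced by low oxygen. In ducts against stroma 1 was called higher, mmu-miR-210 (0.97), and 0 lower, with mmu-miR-130a the lowest (-0.31) and a median of 0.27 over the 8. In TEBs against ducts 1 was called higher, mmu-miR-210 (1.50), and 2 lower, the lowest being mmu-miR-23b (-0.61), with a median of -0.16 over the 8. Its members are expressed in many cell types besides endothelium. The fibroblast list, of 4 tested miRNAs, had 3 called higher in TEBs than in stroma (median 0.53) and 2 called higher in ducts than in stroma (median 0.45), from mmu-miR-199b* (-0.19) to mmu-miR-214 (0.85) in the first comparison. The 3 stayed under the 4 other scalings. The 2 became 0 with the percentile of all miRNAs and 3 with no scaling, quantile normalization or the value table. Of all 167 tested miRNAs 34 were called higher and 74 lower in TEBs than in stroma, and 16 and 20 in ducts than in stroma. For TEBs against ducts these counts were 19 and 22.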

How the data were processed

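RNA from TEBs, mature ducts and stroma was labelled with Cy3-pCp (100 ng per sample) and hybridised to single-colour Agilent mouse miRNA arrays. The authors deposited the total signal intensity of each miRNA from Agilent Feature Extraction 9.5.3, summed over its probes and background-subtracted, with its error and a detection flag, not normalized between arrays. They also deposited a series table of log2 values whose upper quantiles are equal in all columns, as after quantile normalization. Its further steps are not given in the sources used here, and its column medians were 0.14 (stroma replicate 2), 0.17 (duct replicate 1) and 1.48 (the other 6).

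The labelled region set each sample's group. Control probes (22) and viral probes (39) were left out. Arrays were scaled to an equal 75th percentile over the 108 miRNAs detected on all 8 arrays, a floor of 1 was applied, and log2 signals were fitted with limma 3.58.1 (R 4.3.3; lmFit, contrasts.fit, eBayes) in 1 fit to 8 arrays. A miRNA was tested if at least 1 tissue had it detected on each of its arrays (167 miRNAs), with Benjamini-Hochberg adjustment within each comparison at 0.05. Ratios were compared by exact permutation tests. The procedure was tested on simulated data. The number of arrays limits the precision.

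The members and the lists were chosen with earlier results of these data known. Named miRNAs were the members, the 5 tested miRNAs nearest to mmu-miR-126-3p and to mmu-miR-451 by Pearson correlation, and of each list the tested miRNAs with the largest and smallest fold change. Alternatives were other scalings, 16 added to signals instead of the floor, normexp (offset of 50), the value table, other filters, a replicate block, a slide row covariate, trend and robust estimation, a fit on the 2 tissues compared, the methods' t-test (equal variances) and leaving out each array. Values within each slide row, and the lists under the other scalings, were added after seeing the data.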

Additional observations from a re-analysis of the deposited data

How the results depend on the processing

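Of 285 alternative values of the members' fold changes, 220 kept direction and side of the threshold, 41 lost the call, 11 gained it, 2 moved and 11 changed sign. Values within slide rows have no p-value. With the sign unchanged, they counted as kept where they lay within an SD between arrays of a tissue from the main value, and otherwise as moved. The cause was not tested for any change below, beyond what an alternative's construction shows.

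For TEBs against stroma (108 miRNAs, 4 members), scaling to the percentile of all miRNAs gave 66 miRNAs and 0 members. Members were 1 with no scaling, quantile normalization, the value table, no filter on dim miRNAs or the methods' t-test after adjustment, and 2 before adjustment. For ducts against stroma (36 and 1), the percentile of all miRNAs gave 19 and 0, no scaling 56 and 0, and normexp 69 and 2, while no filter, the fit on the 2 tissues and the methods' t-test after adjustment gave 0 members. For TEBs against ducts (41 and 0), no scaling gave 75 and 2, adding 16 gave 71 and 1, normexp 27 and 1, no filter 18 miRNAs and the methods' t-test 12 after adjustment. Quantile normalization, the slide row as a covariate and trend and robust estimation gave 1 member, and the methods' t-test before adjustment 2. Leaving out each array gave 81 to 114, 22 to 40 and 5 to 45 miRNAs, and 1 to 4, 0 to 1 and 0 to 1 members; TEBs against ducts fell to 5 without TEB replicate 2, 7 without duct replicate 1 and 25 without duct replicate 2. Fits without a duct array assume that the lone duct array varies like the others.

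Arrays with the same replicate number did not deviate together (mean r = -0.10 over 7 pairs, against 0.05 over 14 others), and 2 of 8 arrays correlated best with their own number. The deviations were taken from each tissue's mean and cancel within a tissue, so the 14 pairs are not independent of the 7. With the replicate number as a block 16 miRNAs differed between TEBs and ducts, against 41, and the counts of members were 4, 1 and 0, as without the block.

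The difference of mmu-miR-451 between ducts and stroma, 0.00, was 0.62 with no scaling, 0.29 with quantile normalization, 0.20 in the value table, -0.15 with the percentile of all miRNAs, -0.19 with the block, -0.059 with the slide row, -0.27 without stroma replicate 3, -0.17 without duct replicate 1, and -0.12 and -0.022 within slide rows 1 and 2. In that comparison mmu-miR-144 (-0.43) became 0.18 with no scaling, and mmu-miR-486 (-0.15) became 0.46 unscaled, 0.20 when duct replicate 2 was left out and -0.51 when duct replicate 1 was left out. For TEBs against ducts mmu-miR-126-3p (-0.45) became 0.10 with the percentile of all miRNAs.

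The ratio of mmu-miR-451 to mmu-miR-126-3p in ducts against stroma was 1.06 on the log2 scale in the value table, against 0.75, and 0.53 to 0.98 with an array left out. It was 0.22 to 0.46 for TEBs against stroma and -0.62 to -0.18 for TEBs against ducts with an array left out. The ratio of mmu-miR-144 to mmu-miR-451 in ducts against stroma (-0.44) was -0.73 in the value table, -0.88 and -0.086 within slide rows 1 and 2, and -0.69 to -0.18 with an array left out. The ratio of mmu-miR-486 to mmu-miR-451 in TEBs against stroma (-0.12) was 0.16 adding 16, 0.24 with normexp, 0.21 in the value table, -0.40 within slide row 2 and -0.29 to 0.01 with an array left out. In ducts against stroma (-0.16) it was -0.36 with normexp, -0.40 in the value table, 0.10 and -0.38 within slide rows 1 and 2, and -0.34 to 0.03 with an array left out. In TEBs against ducts (0.04) it was 0.45 adding 16, 0.60 with normexp, 0.61 in the value table and -0.14 to 0.23 with an array left out. mmu-miR-144 and mmu-miR-486 had signals of 2.38 to 7.92 times their error, against 11.7 or more for mmu-miR-126-3p and mmu-miR-451.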
